A study of Mus musculus with 18 samples.

Results

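The genes described here are 37 G2/M mitotic genes of the mouse, a fixed list of cyclins, kinases, checkpoint, kinetochore, motor and cytokinesis genes whose products act from the end of G2 to the separation of daughter cells. The members were found by symbol in the deposited expression table, where they are 37 of 53946 genes. All 37 passed the filter on low counts and are among the 16233 genes tested. No measured value was used to choose them, but they were proposed with results of these data in view.

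The study asked what loss of Setd2, the methyltransferase that places the trimethyl mark on lysine 36 of histone H3 (H3K36me3), does in mice carrying NHD13, a Nup98-HoxD13 fusion transgene used as a model of myelodysplastic syndrome and its progression to leukemia. Each RNA group had 3 libraries. WT was C57BL/6 bone marrow, NHD13 was NHD13/Setd2 flox/flox marrow with floxed, undeleted Setd2, and KO was NHD13/Setd2 KO marrow in which Mx1-Cre had deleted Setd2; all of these were sorted hematopoietic stem and progenitor cells (HSPCs). AML was NHD13/Setd2 KO - AML, C-Kit+ cells sorted from leukemic spleens. NHD13, KO and AML all carry the transgene, KO and AML also the Mx1-Cre deletion, and every group is labelled strain C57BL/6. WT is labelled with neither the transgene nor floxed alleles, so NHD13 against WT differs in both, and the comparison of AML with KO also changes the tissue and the sorting gate. Mx1-Cre is an interferon-inducible Cre that also acts outside blood cells. Ages, and whether libraries came from separate animals, are not given in the labels, so p-values measure the spread between libraries, which may be technical. H3K36me3 ChIP-seq had 1 library each from NHD13 - AML and NHD13/Setd2 KO - AML spleen C-Kit+ cells, and bisulfite sequencing 1 library for each of the 4 RNA groups.

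Entry into mitosis is driven by Cdk1 bound to A- and B-type cyclins, and is assisted by the Aurora and Polo-like kinases. The spindle checkpoint delays the anaphase-promoting complex (APC/C) until every kinetochore is attached, after which the complex marks cyclin B and securin for destruction. Most of these genes are transcribed in a burst in G2, through promoters that carry CCAAT boxes and a cell cycle homology region (CHR), and their mRNA is used in blood research as a measure of how many progenitors are cycling.

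These promoter elements were visible in the sequences. The RefSeq promoter table (GRCm38.p6) matched 33 of the 37 members; Kif20a, Ccna2, Tpx2 and Aurkb had no entry. In windows from 250 bases before to 50 bases after the start, CCAAT on either strand was found for 27 of 33 members (81.8%), against 41.1% of all 27025 genes in the table and 42.4% of the 10811 tested genes with an entry. TTTGAA or TTCGAA, the letters of the CHR, stood on either strand for 26 of 33 (78.8%), against 21.7% of all genes and 16.8% of tested genes. In the 150 bases before the start alone, CCAAT was still found for 27 members, but TTTGAA or TTCGAA for only 10 (30.3%), against 11.2% of all genes and 7.98% of tested genes. Both motifs were present for 23 members (69.7%), against 8.61% of all genes. TTCGAA reads the same on both strands, and matches of different motifs that overlap were each counted. Shown are 8 promoters, 4 of genes that were lower in AML than in KO (Ccnb2, Cdk1, Ube2c, Cdc20) and 4 of genes that were higher (Bub1, Top2a, Ttk, Kif11), from 130 bases before the start through its first 20 transcribed bases, 5′ to 3′ on the gene's strand, with the motifs in capitals.
Ccnb2: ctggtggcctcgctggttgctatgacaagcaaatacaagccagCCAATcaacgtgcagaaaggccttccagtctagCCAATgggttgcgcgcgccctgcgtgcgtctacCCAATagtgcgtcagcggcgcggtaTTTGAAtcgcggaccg
Cdk1: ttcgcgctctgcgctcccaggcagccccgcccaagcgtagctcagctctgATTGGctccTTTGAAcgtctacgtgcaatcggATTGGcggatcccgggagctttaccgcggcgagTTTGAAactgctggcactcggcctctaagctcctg
Ube2c: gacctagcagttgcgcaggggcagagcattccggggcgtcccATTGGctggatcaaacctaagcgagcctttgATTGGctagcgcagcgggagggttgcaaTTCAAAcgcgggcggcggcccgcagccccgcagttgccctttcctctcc
Cdc20: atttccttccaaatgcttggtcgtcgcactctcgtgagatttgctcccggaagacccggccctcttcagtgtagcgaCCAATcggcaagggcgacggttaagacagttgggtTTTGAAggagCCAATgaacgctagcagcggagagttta
Bub1: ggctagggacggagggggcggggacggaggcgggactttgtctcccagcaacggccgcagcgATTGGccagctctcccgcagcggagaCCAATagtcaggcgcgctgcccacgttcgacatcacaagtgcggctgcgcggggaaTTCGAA
Top2a: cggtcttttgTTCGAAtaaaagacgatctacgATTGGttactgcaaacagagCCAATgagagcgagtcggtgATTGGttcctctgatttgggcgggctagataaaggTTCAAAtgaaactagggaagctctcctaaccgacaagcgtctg
Ttk: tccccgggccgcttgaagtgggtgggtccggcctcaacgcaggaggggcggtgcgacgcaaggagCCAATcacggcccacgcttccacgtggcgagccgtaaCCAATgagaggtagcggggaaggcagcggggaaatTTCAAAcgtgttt
Kif11: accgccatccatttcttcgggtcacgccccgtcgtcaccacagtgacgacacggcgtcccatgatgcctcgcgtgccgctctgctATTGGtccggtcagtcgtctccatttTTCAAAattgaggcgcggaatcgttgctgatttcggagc

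The windows are chr9:70421535-70421684 for Ccnb2 (minus strand), chr10:69352893-69353042 for Cdk1 (minus strand), chr2:164769799-164769948 for Ube2c (plus strand), chr4:118437324-118437473 for Cdc20 (minus strand), chr2:127831840-127831989 for Bub1 (minus strand), chr11:99024170-99024319 for Top2a (minus strand), chr9:83834559-83834708 for Ttk (plus strand) and chr19:37376252-37376401 for Kif11 (plus strand), each upstream of and into the first exon. Both motifs occur in the promoters of genes that fell in AML and of genes that rose. With the correction for gene length given below, Cdc20 was no longer called lower, and of Bub1, Top2a, Ttk and Kif11 only Bub1 stayed higher. Ccnb2 has CCAAT beginning 87, 54 and 21 bases before its start, and on the other strand, where the letters read ATTGG, Cdk1 has it at 80 and 48 and Ube2c at 88 and 57 bases before the start. TTTGAA on the other strand reads TTCAAA. A match is a description of letters, not a binding site. Birc5, Nuf2 and Nusap1 have neither motif in their windows.

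Total counts were 18673704 to 28127686 a library. All CPM values (counts scaled to a common library size) are after TMM scaling, a correction for library composition. WT replicate 1 stood apart from the other WT libraries, and the chi-square of its counts, divided by the degrees of freedom, was 27.2 and 28.3 against them and 3.83 between them. NHD13 pairs gave 7.71 to 22.5, and the 3 AML libraries differed least, at 1.94 to 2.56. Setd2 stood at 45.2, 43.9 and 37.2 CPM in WT, 34.4, 34.6 and 31.5 in NHD13, 33.1, 29.2 and 34.9 in KO and 183, 187 and 179 in AML. Counts over a whole gene do not resolve the deleted exons, so these levels do not check the KO label, and KO and AML mean the libraries labelled so throughout. Xist was at 125 to 229 CPM of all counts in WT and 53.9 to 109 in NHD13 but at most 0.0979 in KO and AML, while the Y-linked Eif2s3y was at 53.8 to 88.8 CPM in KO and AML and at most 0.0404 in WT and NHD13. Sex and the KO and AML labels therefore cannot be told apart.

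The cells sorted as HSPCs also differed in their markers. Summed over 8 stem and progenitor markers, the level was 862 to 893 CPM in WT, 94.2 to 102 in NHD13, 380.0 to 393 in KO and 631 to 642 in AML. In NHD13 all 8 of these markers were lower than in WT, and the mean of Flt3 was 1.05 CPM and that of Procr 0.483, with Kit at 73.6 CPM against 100.5 in WT. The sum of 8 neutrophil lineage genes was 23544 to 27363 CPM in WT, 127500 to 147702 in NHD13, 47406 to 50322 in KO and 21306 to 21728 in AML, and all 8 rose in NHD13 against WT. In KO all 8 stem markers rose and all 8 neutrophil genes fell against NHD13. The 10 erythroid genes summed to 1776 to 1853, 2253 to 2735, 2472 to 2601 and 79.2 to 85.3 CPM in the same order. In bulk RNA, a change in the share of cycling cells and a change in mRNA per cell cannot be told apart. The part of these marker shifts in the results that follow was not tested.

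NHD13 HSPCs held more mRNA of every mitotic gene on the list than WT HSPCs. All 37 members rose (adjusted p below 0.05, edgeR), where 25.3% of all genes tested rose and 28.7% fell. In all 37 each NHD13 library was above each WT library, which holds for 25.6% of genes. The median log2 fold change was 0.89 (SD between genes 0.31), against -0.04 over all genes, and 13 members rose at least 2-fold, as did 7.15% of genes. The summed level of the 37 went from 3220 to 3425 CPM in WT to 5977 to 6247 in NHD13, and the count of 37 was the same without WT replicate 1.

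**Figure D1:**
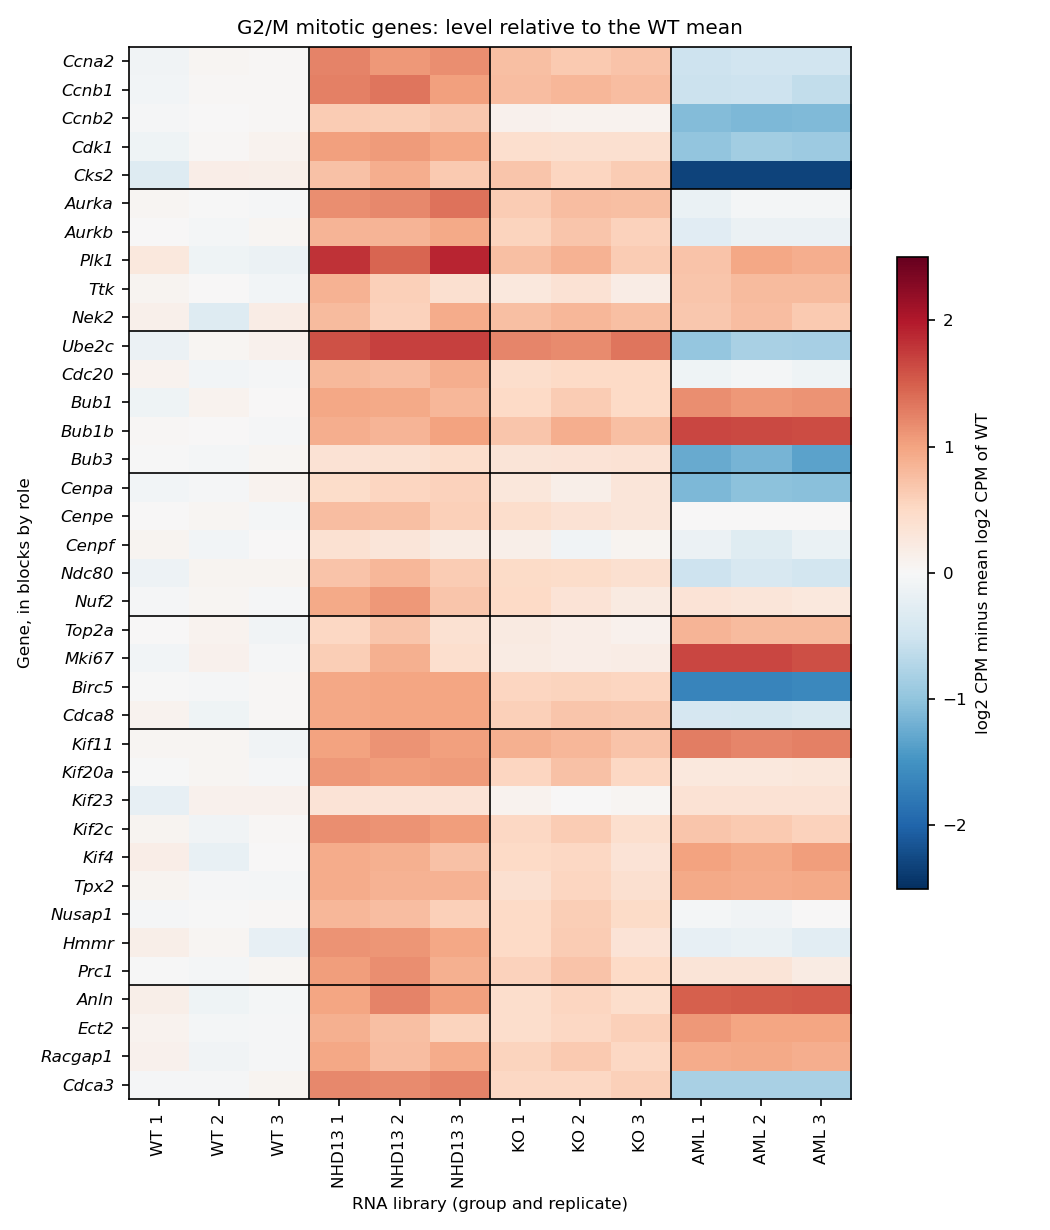
Level of each of the 37 genes (rows, in blocks by role) in each of the 12 RNA libraries (columns), as log2 CPM minus the mean log2 CPM of the 3 WT libraries, on a colour scale from blue (lower) to red (higher). All rows are red in NHD13, mostly paler in KO, and split into red and blue rows in AML, with Cks2 and Birc5 the bluest and Bub1b and Mki67 among the reddest.

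With KO the direction turned. None of the 37 rose and 32 fell against NHD13, where 20.6% of all genes rose and 20.3% fell, and the median was -0.37, against 0.02 over all genes. In 32 members each KO library was below each NHD13 library (24.3% of genes). No member changed by 2-fold. The 5 genes that did not pass the test were Cks2, Nek2, Bub1b, Bub3 and Ect2. All 32 genes that fell were above WT in NHD13; the NHD13 libraries serve in both comparisons, so the rise and the fall are not independent. Summed CPM in KO was 4765 to 4808, between WT and NHD13. Sums of neutrophil genes and the Xist level moved between the same groups; their part was not tested, and sex cannot be told apart from the KO label.

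How far these changes go depends on the scaling for library composition. The 10 most abundant genes took 14.1% to 15.8% of counts in NHD13 and 6.90% to 7.16% in WT. Scaled to library totals alone, the median of all genes was -0.42 in NHD13 against WT and 0.21 in KO against NHD13, and 1729 genes rose and 8629 fell in the former (4112 and 4652 with TMM). On that scale 32 members rose in NHD13 (median 0.51) and 19 fell in KO (median -0.18). Relative to the median of all genes the members stood at 0.93 in NHD13 against WT and -0.39 in KO against NHD13 with either scaling. A scaling factor shifts all genes of a library nearly alike. This agreement is therefore built into the measure and does not tell which scaling is right.

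The cyclins and Cdk1 followed this order. Ccnb1, cyclin B1, stood at 96.2, 103 and 103 CPM in WT, 239.6, 253 and 204 in NHD13 and 173, 179 and 171 in KO. No library of a group overlapped another group, and the gene rose 2.31-fold in NHD13 (log2 1.21 ± 0.07, SE; adjusted p = 4.86e-11) and fell 1.33-fold in KO (log2 -0.41 ± 0.07, SE; adjusted p = 9.23e-05). Ccnb2, cyclin B2, was at 167, 170.5 and 173 CPM in WT, 263, 262 and 269.9 in NHD13 and 183, 181 and 182 in KO. It rose in NHD13 (log2 0.64 ± 0.05, SE; adjusted p = 2.78e-09) and fell in KO (log2 -0.54 ± 0.05, SE; adjusted p = 4.60e-08). Each KO library of Ccnb2 was still above each WT library, but KO against WT (log2 0.095) did not pass the test (adjusted p = 0.148). For Ccna2, cyclin A2, which partners Cdk2 in S phase and Cdk1 in G2, the levels were 92.8, 102 and 100.3 in WT, 233, 209 and 220.3 in NHD13 and 165, 155 and 161 in KO. It rose 2.25-fold (log2 1.17 ± 0.06, SE; adjusted p = 6.16e-12) and then fell 1.38-fold (log2 -0.46 ± 0.06, SE; adjusted p = 3.20e-06). Cdk1, the catalytic subunit, was at 127, 140.0 and 146 CPM in WT, 280.3, 288 and 267 in NHD13 and 183, 183 and 181 in KO, again in 3 separate bands, with log2 changes of 1.02 ± 0.06 (adjusted p = 5.93e-11) and -0.61 ± 0.06 (adjusted p = 1.19e-07). Cks2, the small Cdk1-binding subunit, behaved differently in KO: at 406, 573 and 565 CPM in WT, 843, 949 and 799.8 in NHD13 and 822, 739.9 and 789 in KO, it rose in NHD13 (log2 0.75 ± 0.11, SE; adjusted p = 2.97e-05), but the KO and NHD13 ranges overlapped and the change of -0.14 ± 0.11 did not pass the test (adjusted p = 0.316).

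Among the kinases Plk1, the Polo-like kinase of centrosomes, kinetochores and the midzone, changed most of all members in both comparisons. Its level was 35.3, 27.3 and 26.6 CPM in WT, 104, 81.2 and 111 in NHD13 and 49.7, 54.3 and 46.0 in KO, a 3.31-fold rise (log2 1.73 ± 0.13, SE; adjusted p = 3.44e-08) followed by a 1.97-fold fall (log2 -0.98 ± 0.13, SE; adjusted p = 1.86e-05). The 3 groups did not overlap, but Plk1 also had a wide spread between NHD13 libraries (SD 15.5 CPM). Aurkb, the kinase of the chromosomal passenger complex, was at 104, 101 and 107 in WT, 186, 187 and 201 in NHD13 and 154, 168 and 154 in KO. It rose by 0.88 ± 0.06 (adjusted p = 4.85e-10) and changed by -0.27 ± 0.06 in KO (adjusted p = 0.00129). Aurka, the spindle pole Aurora kinase, rose by 1.24 and changed by -0.52 in KO; Ttk, the checkpoint kinase also called Mps1, gave 0.63 and -0.35, all 4 past the test. The fall of Ttk in KO did not pass without NHD13 replicate 1 (-0.21, adjusted p = 0.110) or without KO replicate 3 (-0.31, adjusted p = 0.0565). Nek2, which separates centrosomes, had 18.8, 13.9 and 19.7 CPM in WT, 29.8, 25.6 and 32.7 in NHD13 and 29.0, 30.6 and 29.1 in KO. It rose in NHD13 (log2 0.75 ± 0.12, SE; adjusted p = 1.97e-05) and its KO libraries lay inside the NHD13 range (log2 0.01 ± 0.11, adjusted p = 0.955).

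In the APC/C and spindle checkpoint group, Ube2c, the ubiquitin-conjugating enzyme that serves the APC/C, rose 3.17-fold in NHD13, from 111, 127 and 132 CPM to 368, 403 and 402 CPM (log2 1.67 ± 0.07, SE; adjusted p = 4.69e-13). In KO it was 288, 279 and 311 CPM, 1.34-fold below NHD13 (log2 -0.42 ± 0.07, SE; adjusted p = 7.73e-05) and still above each WT library. Cdc20, the APC/C activator that the checkpoint holds back, was at 127, 114 and 116 CPM in WT, 209.6, 203 and 222 in NHD13 and 161, 168 and 167 in KO; it rose by 0.83 ± 0.06 (adjusted p = 6.78e-10) and changed by -0.35 ± 0.06 in KO (adjusted p = 6.93e-05). Bub3, the propeller protein that brings Bub1 and Bub1b to kinetochores, moved little: 274, 266 and 283 CPM in WT, 352, 357 and 371 in NHD13 and 343, 346 and 351 in KO, a rise of 0.39 ± 0.05 (adjusted p = 6.98e-06) and no called change in KO although each KO library lay just below each NHD13 library (-0.05 ± 0.05, adjusted p = 0.457). Its partners Bub1 and Bub1b rose by 0.91 and 0.92. Bub1 fell in KO (log2 -0.37 ± 0.08, SE; adjusted p = 9.50e-04), whereas Bub1b, at 75.9, 72.8 and 81.1 CPM in NHD13 and 65.9, 76.3 and 68.4 in KO, overlapped and was not called (-0.12 ± 0.07, adjusted p = 0.143).

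The 5 centromere and kinetochore genes had a median log2 of 0.71 in NHD13 and -0.28 in KO, and all 5 passed the test in both. Cenpa, the centromeric variant of histone H3, changed by 0.52 and -0.28, and Cenpe, a kinetochore kinesin, by 0.71 and -0.34. Ndc80 and Nuf2, subunits of the complex that grips microtubules, changed by 0.72 and -0.27 and by 0.92 and -0.56. Cenpf, a large outer kinetochore protein, had the smallest rise of the 37. It stood at 47.7, 43.3 and 45.9 CPM in WT, 59.3, 56.5 and 52.8 in NHD13 and 50.5, 43.0 and 48.1 in KO (log2 0.30 ± 0.08, SE; adjusted p = 0.00292), and its direction turned to -0.09 when counts were scaled to library totals alone. The fall of Cenpf in KO (log2 -0.25 ± 0.08, SE; adjusted p = 0.0137) did not pass without NHD13 replicate 1 (-0.20, adjusted p = 0.0904) or without KO replicate 2 (-0.18, adjusted p = 0.110).

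**Figure D2:**
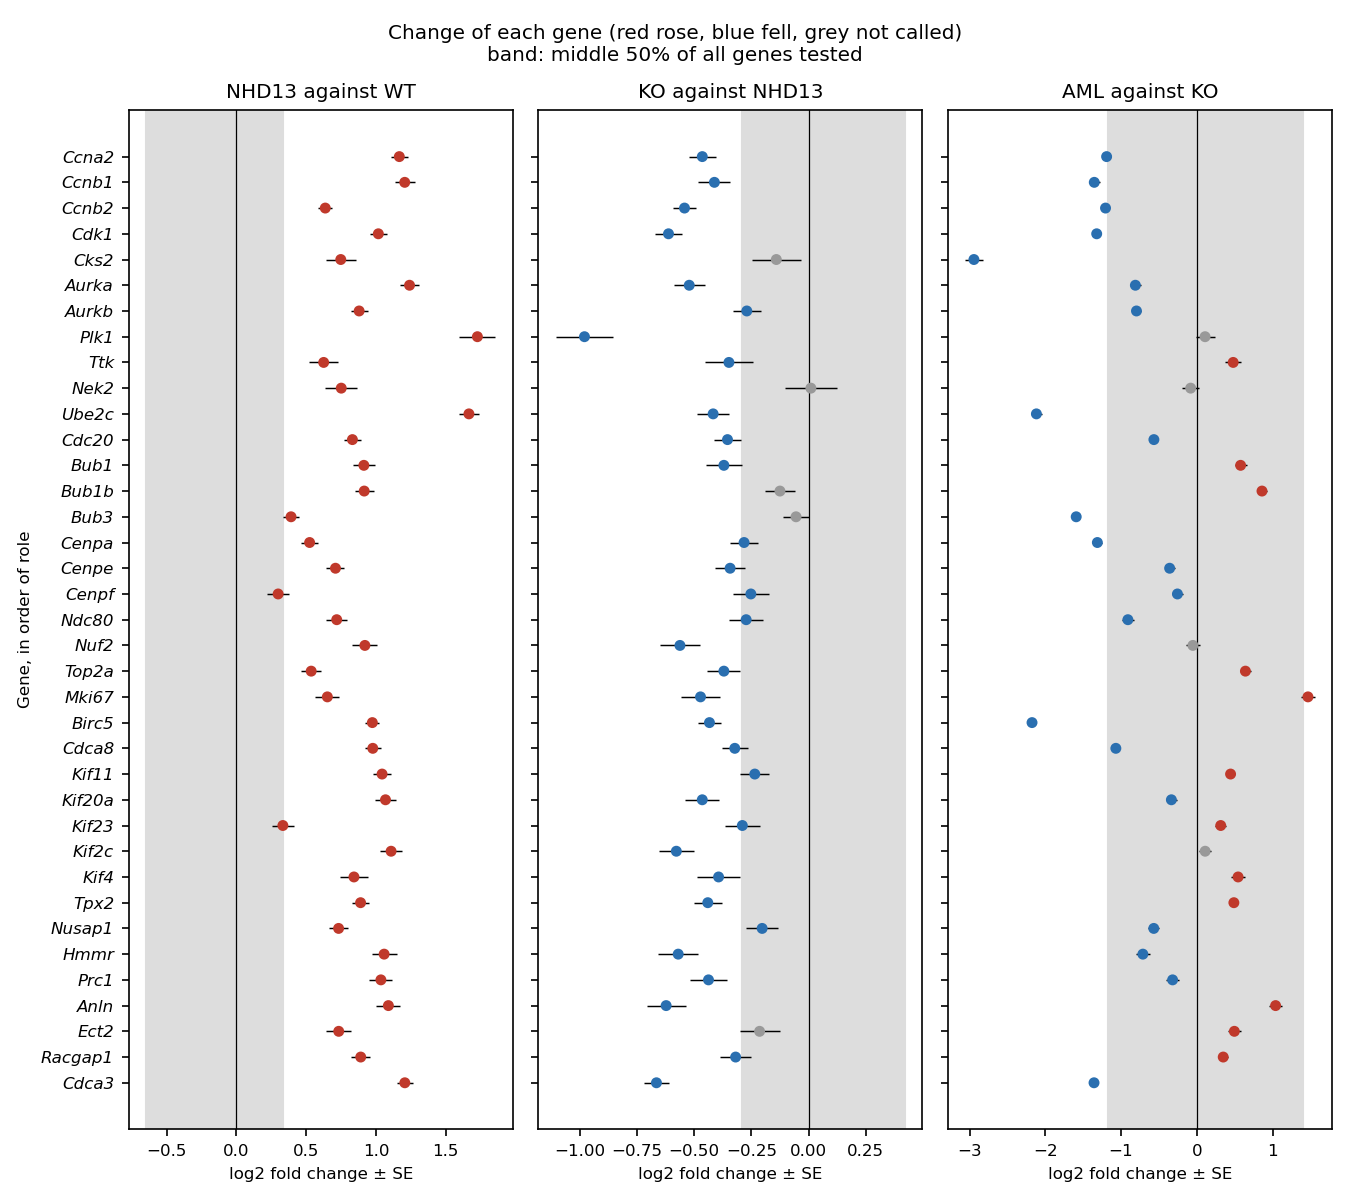
Log2 fold change (x axis, with SE bars) of each of the 37 genes (rows, ordered by role) in NHD13 against WT, KO against NHD13 and AML against KO, red where the gene rose, blue where it fell and grey where the test was not passed; the grey band holds the middle 50% of all 16233 genes tested. Points lie right of 0 in the left panel, at or left of 0 in the middle panel except Nek2 at 0.01, and from -2.94 to 1.47 in the right panel.

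Of the chromosome and passenger genes, Birc5 (survivin) had 181, 177 and 186 CPM in WT, 354, 357 and 356 in NHD13 and 262, 266 and 263 in KO, with a spread of at most 4.40 CPM (SD) in any of the 3 groups. It rose by 0.97 ± 0.05 (adjusted p = 6.15e-12) and changed by -0.43 ± 0.05 in KO (adjusted p = 8.38e-07). Cdca8 (borealin), which binds survivin in that complex, had 0.98 and -0.32, both called. Top2a, the topoisomerase that untangles sister chromatids, was at 157, 166 and 147 CPM in WT, 224, 254 and 205 in NHD13 and 184, 177 and 168 in KO (log2 0.54 ± 0.07, adjusted p = 4.10e-06, then -0.37 ± 0.07, adjusted p = 3.76e-04). Mki67 encodes Ki-67, the proliferation antigen that coats mitotic chromosomes, and read 97.8, 111 and 101 CPM in WT, 158, 191 and 139 in NHD13 and 118, 115 and 118 in KO. It rose by 0.65 ± 0.09 (adjusted p = 4.58e-06) and changed by -0.47 ± 0.09 in KO (adjusted p = 2.36e-04). For both genes each NHD13 library was above each WT and KO library.

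All 9 spindle motor and microtubule genes rose in NHD13 (median 1.04) and all 9 fell in KO (median -0.44). Kif2c, a kinesin that shortens microtubules, changed by 1.11 and -0.58; Kif20a, a midzone motor, by 1.07 and -0.46; Hmmr, which organises spindle poles, by 1.06 and -0.57; and Prc1, which bundles midzone microtubules, by 1.04 and -0.44. Tpx2, the activator of Aurora A, gave 0.89 and -0.44, the chromokinesin Kif4 0.84 and -0.39, and Nusap1, a spindle-associated protein, 0.73 and -0.20. The fall of Nusap1 in KO overlapped between the groups and did not pass without NHD13 replicate 1 (-0.15, adjusted p = 0.145) or 2 (-0.17, adjusted p = 0.0894), or without KO replicate 1 (-0.19, adjusted p = 0.0841) or 3 (-0.17, adjusted p = 0.108). Kif11, the motor that pushes spindle poles apart, stood at 56.8, 56.4 and 51.2 CPM in WT, 109.7, 119 and 111 in NHD13 and 101, 97.5 and 89.6 in KO. It rose in NHD13 (log2 1.04 ± 0.07, SE; adjusted p = 1.17e-10) and fell in KO (log2 -0.23 ± 0.06, SE; adjusted p = 0.00621), and the fall did not pass without KO replicate 3 (adjusted p = 0.0510). Kif23, the motor of centralspindlin, was at 42.1, 52.6 and 52.3 CPM in WT, 61.5, 61.7 and 62.0 in NHD13 and 51.7, 49.2 and 50.6 in KO; it rose by 0.33 ± 0.08 (adjusted p = 0.00113), a value of -0.05 with library totals alone, and changed by -0.29 ± 0.08 in KO (adjusted p = 0.00511).

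The cytokinesis genes and Cdca3 completed the list. Anln, the scaffold of the contractile ring, changed by 1.09 and -0.62, and Racgap1, the partner of Kif23, by 0.89 and -0.32. Ect2, the exchange factor that switches on RhoA at the midzone, rose by 0.73 and had -0.21 ± 0.09 in KO, just outside the threshold (adjusted p = 0.0579) and past it without NHD13 replicate 3 (-0.30, adjusted p = 0.00807). Cdca3, an adaptor linked to the destruction of the Cdk1 inhibitor Wee1, had the second largest change in KO after Plk1. Its CPM was 94.6, 95.3 and 102 in WT, 222, 221 and 231 in NHD13 and 139, 139 and 148 in KO, in 3 bands that do not touch (log2 -0.66 ± 0.05, SE; adjusted p = 1.02e-08).

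KO HSPCs were set against WT HSPCs as well, a comparison that shares its libraries with both others. Here 32 members rose and none fell (17.2% and 20% of all genes), with a median of 0.53 against -0.01 over all genes. Ube2c (1.25 ± 0.07, adjusted p = 1.23e-10) and Kif11 (0.81 ± 0.06, adjusted p = 1.57e-08) differed most. Ccnb2, Cenpf, Top2a, Mki67 and Kif23 did not pass; the 2 smallest values were 0.04 ± 0.08 for Kif23 (adjusted p = 0.692) and 0.05 ± 0.08 for Cenpf (adjusted p = 0.671), and all 5 of these were below 0 with library totals alone. For 35 members every KO library was above every WT library. The share of all genes for which this holds is not given here, so that count is a description only. With library totals alone 27 members rose, with a median of 0.33.

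In leukemic spleen cells the list split, as did all genes. Against KO HSPCs, 12 members rose, 21 fell and 4 did not pass in AML, where 42.8% of all genes rose and 39.5% fell. The median was -0.34, against 0.07 over all genes, but the spread between members was 0.99 (SD), compared with 0.19 in KO against NHD13. All genes spread more widely as well. Their lower and upper quartiles were -1.18 and 1.41, compared with -0.29 and 0.42 in KO against NHD13. A wider spread was therefore not particular to the members. At least 2-fold changes were 2 up and 11 down (31.1% and 26.9% of genes). The summed level was 2949 to 2985 CPM, below WT. With library totals alone the counts were 16 and 16 and the median 0.08, on a scale where the median of all genes was 0.49 and 8395 genes rose and 5017 fell (6953 and 6415 with TMM). Relative to all genes the members' median was -0.41 with either scaling, an agreement that is again built into the measure. Marker sums moved over the same comparison: from KO to AML, 5 dendritic cell genes went from 15.8 to 18.9 to 813 to 836 CPM, 5 megakaryocyte genes from 408 to 414 to 25.6 to 27.7, and the T and NK cell genes from 1126 to 1163 to 138 to 142. All 5 megakaryocyte genes fell, but of the 5 dendritic cell genes 3 rose and 1 fell. Of the 3 T and NK cell genes tested, 1 rose, 1 fell and 1 was not called. The neutrophil and erythroid sums given above also fell. Of the 8 neutrophil genes, however, only 2 fell, the abundant Mpo and Elane, and 6 rose. Of the 10 erythroid genes 7 fell and 2 rose. The part of these marker shifts in the result was not tested.

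The cyclins, Cdk1 and Cks2 were the role that went down together: all 5 fell at least 2-fold. Ccnb1 read 69.4, 70.0 and 65.4 CPM in AML, below each of the other 9 libraries and 2.56-fold below KO (log2 -1.35 ± 0.07, SE; adjusted p = 1.71e-12). Ccnb2 had 80.0, 77.8 and 78.9 CPM (log2 -1.20 ± 0.05, SE; adjusted p = 5.41e-14) and Ccna2 68.9, 70.7 and 70.8 CPM (log2 -1.19 ± 0.06, SE; adjusted p = 8.20e-13). Cdk1 was at 69.6, 75.6 and 73.6 CPM, 2.50-fold lower (log2 -1.32 ± 0.06, SE; adjusted p = 2.50e-13). Cks2 had the largest fall of all members, to 102, 102 and 102 CPM, which is 7.69-fold lower than KO (log2 -2.94 ± 0.11, SE; adjusted p = 2.66e-12). None of these 5 genes had an AML library that reached the lowest WT library.

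**Figure D3:**
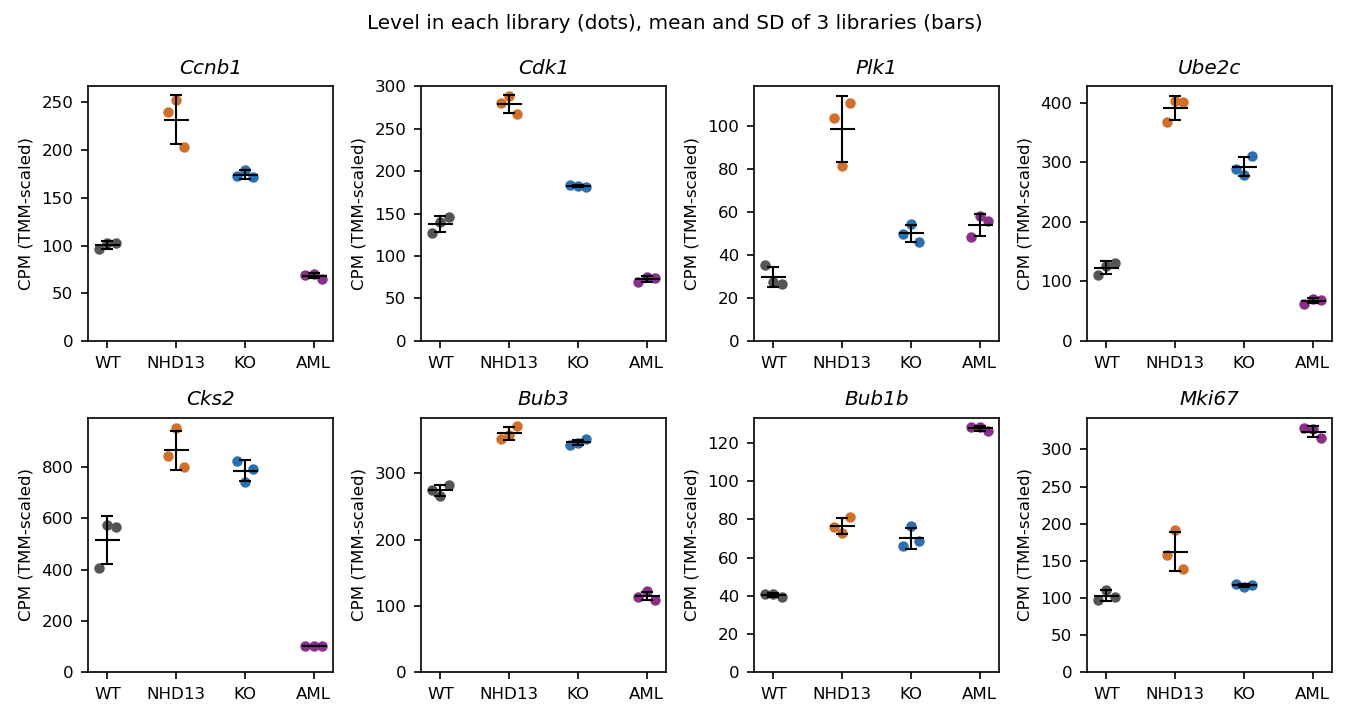
TMM-scaled CPM (y axes, from 0) of 8 genes in the 3 libraries of each group (dots), with the mean and SD (bars). Ccnb1, Cdk1 and Ube2c step up from WT to NHD13, partly down in KO and below WT in AML; Cks2 and Bub3 stay up in KO before falling; Plk1 in AML overlaps KO; Bub1b and Mki67 are highest in AML.

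The kinases were mixed. Plk1 had 48.3, 58.0 and 55.6 CPM in AML, overlapping KO (log2 0.11 ± 0.13, adjusted p = 0.432), and Nek2 also overlapped (-0.08 ± 0.11, adjusted p = 0.505). Aurkb fell to 85.8, 93.7 and 94.3 CPM (log2 -0.80 ± 0.06, SE; adjusted p = 4.62e-10) and Aurka fell as well (log2 -0.81 ± 0.07, SE; adjusted p = 2.48e-09). Ttk went the other way and rose by 0.48 ± 0.10 (adjusted p = 2.81e-04), a call that was lost with the correction for gene length given below.

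Within the APC/C and checkpoint group the members separated further. Ube2c fell to 62.7, 70.1 and 69.5 CPM, 4.34-fold below KO (log2 -2.12 ± 0.07, SE; adjusted p = 2.96e-15), and Cdc20 to 109.9, 116 and 109.9 CPM (log2 -0.57 ± 0.06, SE; adjusted p = 4.19e-08). The checkpoint proteins that bind each other went in opposite directions: Bub3 dropped to 114, 122 and 109 CPM (log2 -1.59 ± 0.06, SE; adjusted p = 4.42e-15), while Bub1b rose to 128, 128 and 126 CPM (log2 0.86 ± 0.07, SE; adjusted p = 4.62e-10) and Bub1 rose by 0.58 ± 0.08 (adjusted p = 1.70e-06). The Bub3 libraries of AML were below, and those of Bub1b above, each library of the other 3 groups.

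Kinetochore genes fell or were not called. Cenpa fell 2.48-fold (log2 -1.31 ± 0.06, SE; adjusted p = 3.77e-13), and falls were called for Ndc80 (-0.91 ± 0.08, adjusted p = 1.49e-09) and Cenpe (-0.36 ± 0.06, adjusted p = 4.89e-05), while Nuf2, the partner of Ndc80, had -0.05 ± 0.09 (adjusted p = 0.597). Cenpf, at 41.0, 37.1 and 40.4 CPM, changed by -0.26 ± 0.08 (adjusted p = 0.0055), a call that was lost without KO replicate 1 (-0.18, adjusted p = 0.0699) and a direction that turned with library totals alone (0.16), as did that of Cenpe (0.06).

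The chromosome and passenger genes went both ways. Mki67 rose to 329, 327 and 316 CPM, 2.76-fold above KO (log2 1.47 ± 0.09, SE; adjusted p = 2.13e-11) and above every other library. Top2a rose to 282, 270.4 and 272 CPM (log2 0.64 ± 0.07, SE; adjusted p = 1.25e-07), but this turned to a fall with the correction for gene length given below. Birc5 fell to 57.9, 57.8 and 59.3 CPM, 4.52-fold below KO (log2 -2.18 ± 0.05, SE; adjusted p = 2.39e-17), and Cdca8 fell (log2 -1.07 ± 0.06, SE; adjusted p = 2.65e-12).

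Motors and cytokinesis genes were mixed. Anln, at 26.6, 28.3 and 26.7 CPM in KO and 55.4, 55.7 and 56.6 in AML, rose 2.06-fold (log2 1.04 ± 0.08, SE; adjusted p = 1.15e-09). Rises were also called for Kif11 (0.45), Kif4 (0.54), Tpx2 (0.49), Kif23 (0.32), Ect2 (0.50) and Racgap1 (0.35). None of these rises, that of Anln included, stayed called with the correction for gene length given below. Falls were called for Hmmr (-0.71), Nusap1 (-0.57), Kif20a (-0.34), Prc1 (-0.32) and Cdca3, which went from 139, 139 and 148 CPM to 55.5, 55.3 and 55.2 CPM (log2 -1.36 ± 0.06, SE; adjusted p = 4.30e-14). Kif20a (0.08) and Prc1 (0.09) were above 0 with library totals alone. Kif2c did not pass (0.11 ± 0.08, adjusted p = 0.189).

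Against WT, with which AML shares no tissue or gate, 18 members were higher and 15 lower (41.7% and 43% of all genes), around a median of 0.01. Bub1b (1.65 ± 0.07, adjusted p = 3.16e-14) and Mki67 (1.65 ± 0.09, adjusted p = 3.94e-12) were highest. Cks2 (-2.33 ± 0.11, adjusted p = 3.30e-11) and Birc5 (-1.63 ± 0.05, adjusted p = 7.88e-16) were lowest.

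Gene length moved with these AML differences. Over all 16233 genes the Spearman correlation of the log2 change in AML against KO with the gene length of the deposited table was 0.31, while it was -0.01 in NHD13 against WT and 0.01 in KO against NHD13. Over the 37 members it was 0.50 in AML against KO and -0.38 in NHD13 against WT. In 4 length classes of equal size the median change of all genes went from -1.01 in the shortest to -0.27, 0.34 and 0.87 in the longest, and the members that rose were 0 of 3, 0 of 7, 7 of 17 and 5 of 10. By this deposited length Cks2 is the shortest member (692 bases) and Cenpf the longest (15433 bases). It is not the genomic span of the gene body, which is 5431 bases for Cks2. Bub3, at 7006 bases, fell despite a length at which most genes rose.

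**Figure D4:**
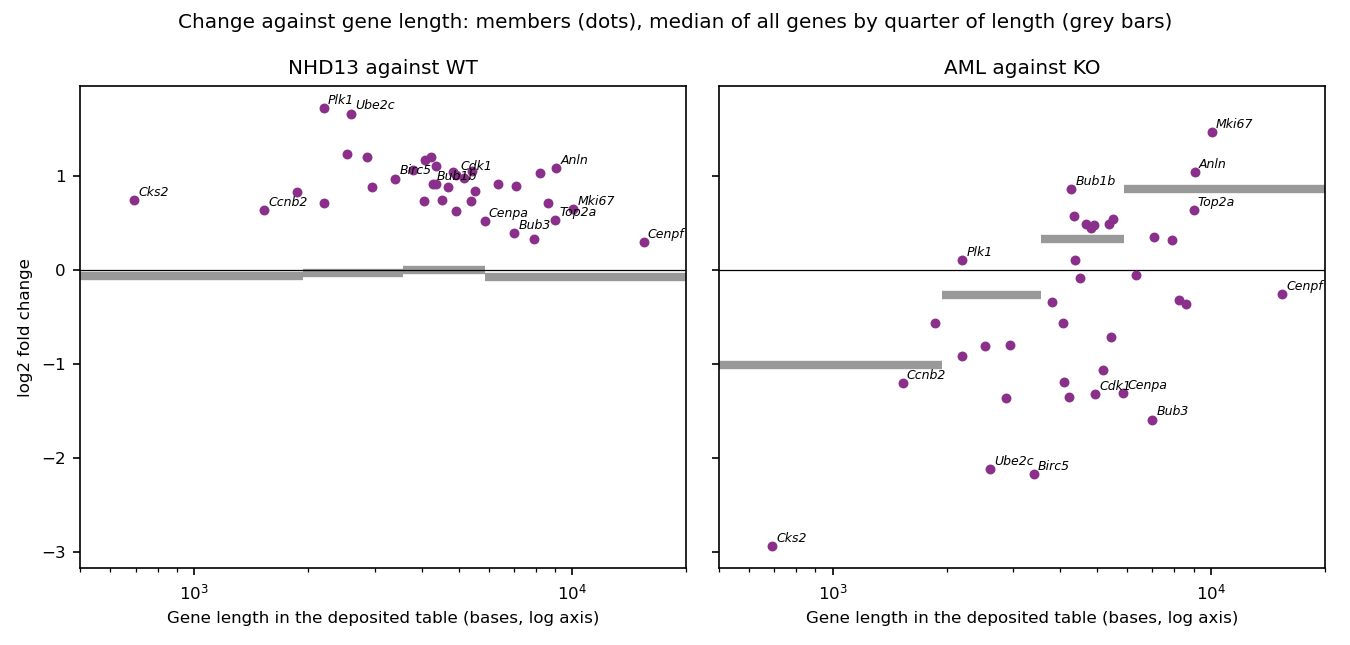
Log2 fold change (y axis) against gene length in bases (x axis, log scale) for the 37 members (dots) in NHD13 against WT and in AML against KO; grey bars give the median of all genes tested in each of 4 length classes. The bars are near 0 in the left panel and climb from -1.01 to 0.87 in the right panel, where Cks2 lies lowest and Mki67 highest.

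With the counts corrected for length in each library, 4 members were higher in AML than in KO and 26 lower. Bub1, Bub1b and Mki67 remained higher and Plk1 became so. Of the 12 genes that rose without the correction, 6 were no longer called in either direction: Ttk, Kif11, Kif4, Tpx2, Anln and Ect2. Of the 21 genes that fell, 20 still did, all but Cdc20, so the fall of the 5 cyclin, Cdk1 and Cks2 genes, of Birc5, Ube2c and Bub3 was found at both settings. The rises of Top2a and Kif23 turned to falls (-0.24 and -0.50), as did that of Racgap1 (-0.40), and Nek2, Nuf2 and Kif2c were also lower. In NHD13 against WT the correction left all 37 members higher. Correlations across genes here are descriptions; genes share libraries and are not replicates.

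Levels of different genes were compared as FPKM, which the authors scaled by gene length and column total. Cks2 was the highest member in each group, at 789.9 ± 132 FPKM in WT, 1018 ± 75.1 in NHD13, 1051 ± 52.0 in KO and 182 ± 2.34 in AML (SD, n = 3). Ccnb2 came next in WT (118 ± 1.36), NHD13 (141 ± 4.15) and KO (110.2 ± 0.849), and Cdc20 in AML (74.0 ± 1.30). At the low end stood Anln in WT (2.31 ± 0.262) and Cenpf in AML (3.16 ± 0.202). Cks2 stood above all others by more than the spread in every group.

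Other genes of the cell cycle, in 8 lists chosen with earlier results known, are given by their counts, to be read against all genes: NHD13 had 25.3% up and 28.7% down, KO 20.6% and 20.3%, and AML 42.8% and 39.5%. All AML values of these lists and their genes are without the correction for gene length, which turned the rises of Top2a, Kif23 and Racgap1 to falls. The part of gene length in them was not tested. Of 27 other mitotic kinesin and spindle genes, 25 rose and 1 fell in NHD13, 19 fell in KO, and in AML 17 rose and 8 fell (medians 0.70, -0.45 and 0.64). Tacc3, a centrosomal protein, rose by 1.09 ± 0.06 (adjusted p = 2.77e-11) and Psrc1, a spindle protein, was the exception (-0.91). Of 28 centromere and outer kinetochore genes 26 rose and 1 fell in NHD13, 22 fell in KO, and in AML 8 rose and 17 fell (medians 0.51, -0.33 and -0.50). Spc25, of the same complex as Ndc80, had 1.07 ± 0.07, -0.68 ± 0.06 and -2.02 ± 0.07 in the 3 comparisons, all called. Cenpb, which binds centromeric repeats, fell in NHD13 (-0.95). Condensin and cohesin genes (17) gave 12 up and 1 down, then 1 up and 11 down, then 7 up and 6 down; the condensin subunit Ncapd2 rose by 2.11 ± 0.06 in AML (adjusted p = 5.23e-16).

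Of 21 APC/C subunits and regulators only 9 rose and 2 fell in NHD13, and 3 fell in KO (medians 0.15 and -0.05). Fbxo5, an APC/C inhibitor (Emi1), rose by 0.72 ± 0.07 and changed by -0.62 ± 0.07 in KO. In AML 7 rose and 11 fell: Pttg1, securin, fell (log2 -2.26 ± 0.07, SE; adjusted p = 1.69e-15), and Espl1, the separase it restrains, rose by 2.55 ± 0.10 (adjusted p = 1.55e-14). In the G2/M entry list (12 genes tested of 13) 8 rose and 1 fell in NHD13, 2 rose and 6 fell in KO, and 5 rose and 5 fell in AML. The phosphatase Cdc25a changed by -0.99 ± 0.08 in KO. Cks1b, the close relative of Cks2, changed by -2.97 ± 0.07 in AML (adjusted p = 1.38e-17).

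Genes of S phase gave 21 up and 2 down of 30 in NHD13 and 19 down in KO, with medians of 0.36 and -0.30, smaller than those of the mitotic genes; the difference between the lists was not tested. Rrm2, the regulated subunit of ribonucleotide reductase, changed by -1.13 ± 0.05 in KO. In AML 6 rose and 18 fell (median -0.51), with Tyms, thymidylate synthase, at -2.07 ± 0.06. Among 23 transcriptional regulators of the cell cycle 13 rose and 3 fell in NHD13, 3 rose and 14 fell in KO, and 14 rose and 9 fell in AML. Foxm1, the forkhead factor that activates G2/M genes, stood at 9.02 ± 0.478 CPM in WT, 19.3 ± 1.09 in NHD13, 15.0 ± 1.04 in KO and 58.9 ± 3.28 in AML (SD, n = 3). It rose in NHD13 (1.09 ± 0.09) and again in AML (1.97 ± 0.09), where Ccnb1 and Cdk1 fell. E2f2, an activating E2F, had 1.72 ± 0.10, -1.82 ± 0.11 and 3.59 ± 0.10 in the same 3 comparisons, and Nfya, a subunit of the CCAAT-binding factor NF-Y, had -0.53 ± 0.14, 0.54 ± 0.14 and 3.94 ± 0.12. Of 14 tested G1 cyclin, kinase and inhibitor genes 5 rose and 6 fell in NHD13, 6 and 6 in KO, and 7 and 5 in AML. Cdkn1a, the p21 inhibitor of cyclin-dependent kinases, ran opposite to the mitotic genes in marrow, at 162 ± 5.13 CPM in WT, 34.2 ± 4.33 in NHD13 and 167 ± 16.2 in KO, and was at 17.2 ± 0.489 in AML (-2.24 ± 0.09, 2.29 ± 0.09 and -3.28 ± 0.09, all called).

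H3K36me3, which Setd2 places behind elongating RNA polymerase, covered these genes broadly in NHD13 - AML cells. Peaks of the authors' lists touched the gene body of all 37 members there and of 32 in NHD13/Setd2 KO - AML, compared with 69.2% and 42.8% of 14351 tested genes with a RefSeq gene body. The median share of the body covered was 86.6% and 20.5%, against 35.9% and 0% over those genes. In all 37 members the share was lower in NHD13/Setd2 KO - AML, by 6.47 to 90.6 percentage points. Of the 14351 genes it was lower in 9806, higher in 259 and equal in 4286, so a lower share is common to most genes with peaks. There was 1 library per group and its depth is unknown, so these are differences between libraries with no test; the 2 lists as wholes cover 193 and 28.4 Mb.

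**Figure D5:**
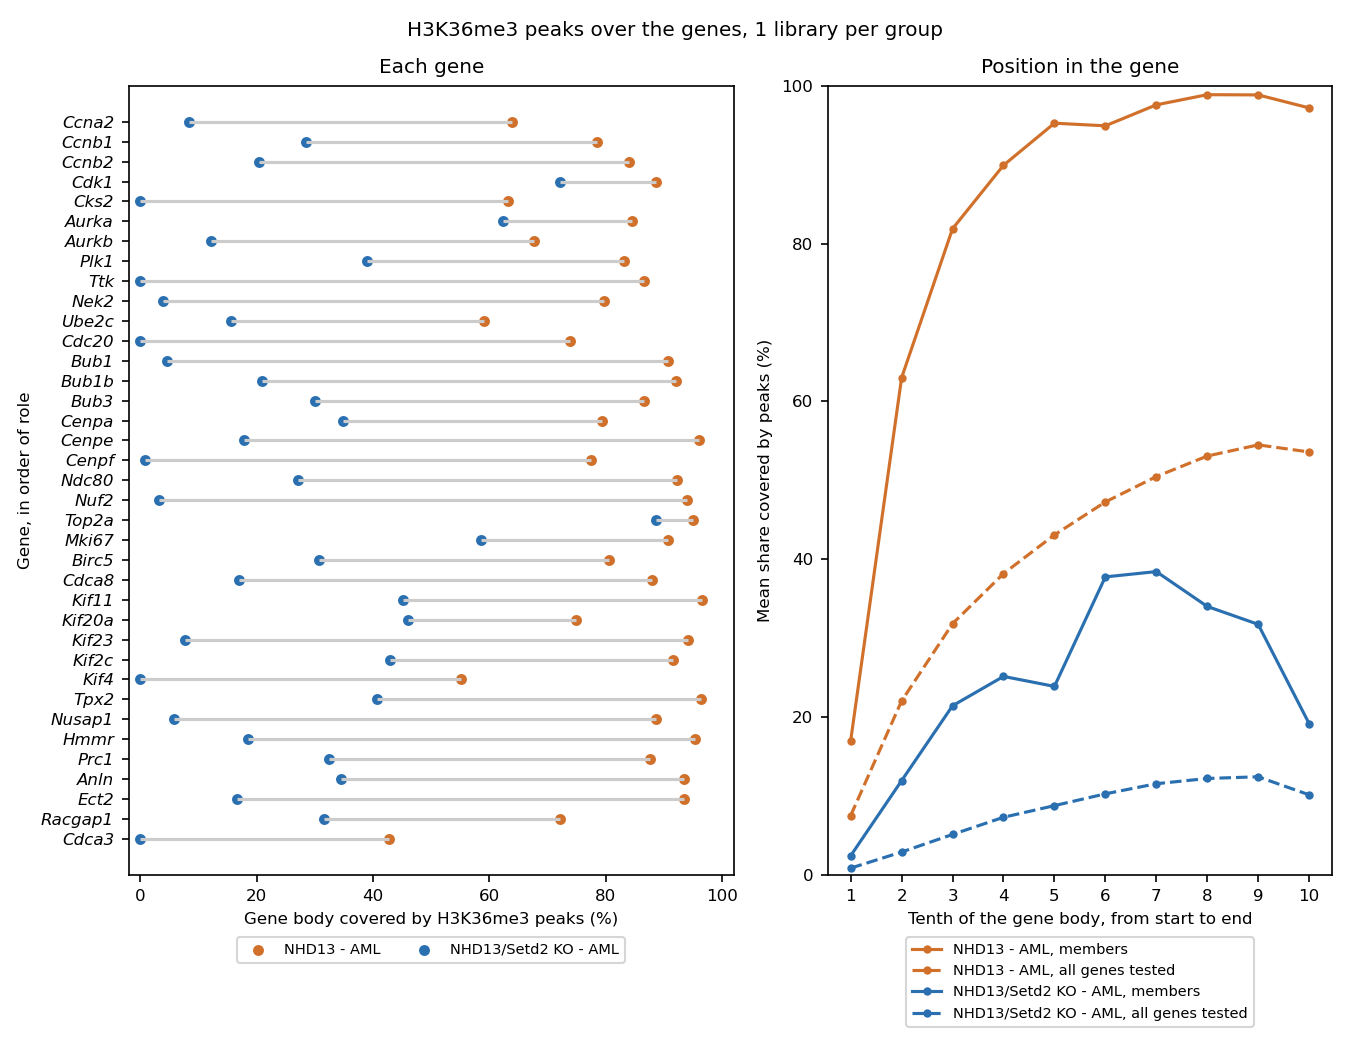
Left, share of each gene body covered by H3K36me3 peaks (x axis, %) in NHD13 - AML (orange) and NHD13/Setd2 KO - AML (blue), 1 library each, for the 37 genes; each blue dot is left of its orange dot. Right, mean share covered (y axis, %) in 10 equal parts of the gene body from start to end, for 33 members (solid) and 10810 genes tested (dashed) of known strand; the members' curve in NHD13 - AML climbs from 17.0% in the part at the start to 98.9%.

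Coverage began downstream of the start, in the members as over all genes tested. In NHD13 - AML the 33 members of known strand were covered over 17.0% of the first of 10 equal parts of the body, 63.0% of the next and 89.9% of the part after 3, up to 98.9% further on. In NHD13/Setd2 KO - AML the highest mean was 38.4%, in part 7, and the last part had 19.2%. Over the 10810 genes tested of known strand, the mean in NHD13 - AML went from 7.49% in part 1 to 54.5% in part 9. In NHD13/Setd2 KO - AML it went from 0.82% in part 1 to 12.4% in part 9, and was 10.1% in the last. Only 4 members kept peaks over 50% of the body or more: Top2a (95.1% in NHD13 - AML and 88.6% in NHD13/Setd2 KO - AML), Cdk1 (88.6% and 72.2%), Aurka (84.5% and 62.3%) and Mki67 (90.6% and 58.5%). In NHD13 - AML 36 members reached that share. Of the 14351 tested genes, 41.8% reached it in NHD13 - AML and 3.66% in NHD13/Setd2 KO - AML. Cdc20, Cdca3, Cks2, Kif4 and Ttk had no peak in NHD13/Setd2 KO - AML; of these, Cks2 had been covered over 63.2%, Ttk over 86.5% and Kif4 over 55.2%. Before the correction for gene length, genes that rose in AML RNA and genes that fell are in both sets.

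A narrower background was counted as well: of 8343 genes with at least 10 CPM in AML, a cut chosen after seeing the data, 93.6% and 65.4% had a peak in the 2 libraries and 64.0% and 5.49% were covered over 50% or more. Counting only peaks with a −log10 q of at least 5, 37 and 19 members had a peak (100% and 51.4%). The shares were 61.2% and 20.3% of the 14351 tested genes, and 86.8% and 32.0% of the 8343. No RNA library of NHD13 - AML cells was analysed here, so coverage and mRNA cannot be compared within that group.

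DNA methylation was compared over the same gene bodies. The authors' deposited tables of differentially methylated regions (1 library a side, no replicate) placed a region in the body of 15 members for NHD13 against WT, 10 for KO against NHD13 and 13 for AML against KO, that is 40.5%, 27.0% and 35.1% of members, compared with 49.6%, 43.0% and 45.7% of genes tested. In the authors' deposited table for NHD13 against WT, 17 of the 22 regions in members were lower in NHD13, and 81.6% of all its 58684 regions were. In the authors' deposited table for KO against NHD13, 10 of the 15 regions in members were lower in KO, and 22.4% of all its 37430 regions were. Several of these member regions lie in the X-linked Kif4, where sex cannot be told apart from genotype. In the authors' deposited table for AML against KO, 10 of the 21 regions in members were lower in AML, and 77.8% of all its 106032 regions were. The regions of a whole table are not limited to gene bodies. Directions within the bodies of all tested genes were not counted, so these shares are not like for like.

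A few of these regions lie at gene starts. The Mki67 start (chr7:135716266-135716548, 72 CpG sites, overlapping the RefSeq start) had 28.4% methylation in KO and 8.67% in AML in the authors' deposited table, and Mki67 mRNA was higher in AML. Inside that span the authors' deposited table gave 30.2% in KO against 11.5% in NHD13 over 46 sites (chr7:135716290-135716456). For Kif4 on the X chromosome, a region of 148 CpG sites over the start (chrX:100625281-100626843) had 9.15% in KO and 49.3% in NHD13 in the authors' deposited table. Kif4 mRNA was also lower in KO than in NHD13 (log2 -0.39). As the libraries of these labels differ in Xist, sex cannot be told apart from genotype at this X-linked gene. No relation of methylation to mRNA was tested. Other regions lie inside the bodies and not over the starts. Those within Aurkb (chr11:69046462-69046740) and Nusap1 (chr2:119619351-119619574) had 6.23% and 5.67% in NHD13 against 27.1% and 27.7% in WT in the authors' deposited table. An Hmmr region (chr11:40713814-40714370, 23 sites) had 67.8% in NHD13, 25.0% in KO and 61.0% in AML in the authors' deposited tables. A Cenpe region (chr3:135244499-135244956, 21 sites) had 43.9% in WT, 82.1% in NHD13 and 36.5% in KO in the authors' deposited tables.

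Some members overlap other annotated genes. Prc1 overlaps Rccd1 over 21669 of its 21815 bases, Kif20a overlaps Cdc23 over 4930 of 8654, and Kif4 overlaps a long noncoding gene over 62763 of 101207; as no source used here gives the strand of the counting, their counts are uncertain. Reads shared between genes were not measured. The pseudogene copies of Ccnb1, Ccnb2 and Kif4 held 29, 72 and 5 counts in all 12 libraries together, against 37278, 45554 and 6303 of the genes.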

How the data were processed

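RNA, H3K36me3 and DNA methylation were measured in 12, 2 and 4 libraries. Read counts per gene were deposited by the authors as raw counts; the submitters' processing notes name mm10, HISAT2 2.0.5 as aligner and HTSeq 0.9.1. FPKM values were deposited by the authors and equal count over gene length and column total (largest relative difference 5.2e-15), with no composition correction. Broad peaks in the layout of MACS2 (2.1.1.20160309 in the submitters' processing notes) were deposited by the authors for 1 library each, with fold enrichment, and −log10 p and q values per peak. Differentially methylated regions were deposited by the authors with the mean methylation of each side as a fraction, printed here as percent; sides were taken from the order of the table names and checked on regions shared by tables. No source used here gives their caller, the coverage or the input of the peaks.

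Counts were tested with edgeR 4.0.16 (R 4.3.3): filterByExpr over 4 groups (16233 of 53946 genes), TMM factors of 0.798 to 1.25, robust quasi-likelihood F test in 1 model over 12 libraries, Benjamini-Hochberg adjustment over all genes, called below 0.05. SE is the size of the log2 fold change over the square root of F. The code was tested on simulated data. Gene bodies came from RefSeq GRCm38.p6, the build of mm10; peaks and regions counted from 1 shared base. Replicates share numbers, and whether equal numbers share a source is not known. The 15 same-number pairs of libraries had correlations of -0.41 to 0.57, 4 of them over 0.1. These correlate deviations from means of 3 libraries and use the same libraries repeatedly, so they cannot exclude a shared source. Named in full were 12 members (Ccnb1, Ccnb2, Ccna2, Cdk1, Plk1, Aurkb, Ube2c, Cdc20, Bub3, Top2a, Mki67, Birc5) and in each comparison the 2 with the largest and the 2 with the smallest log2 fold change; pathway genes were taken from those with the smallest p or against their list. Other members, Ect2, Nuf2 and Kif2c among them, were named after their values were seen. The members, lists and markers were chosen with earlier results of these data known. Nek2 and Kif11 each have another identifier with 0 counts, left out. Alternatives were DESeq2 1.42.0, other scalings and filters, limma 3.58.1 on log2 FPKM, a length correction, a replicate block and leaving out libraries.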

Additional observations from a re-analysis of the deposited data

How the results depend on the processing

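Counts and medians were recomputed under other settings. DESeq2 changes the scaling and the test, the FPKM settings the scaling, the offset and the test, and a fit of only the groups compared also the genes tested. The cause of a change was not tested unless stated. With library totals only, the median of the members was 0.51 in NHD13 against WT, -0.18 in KO against NHD13 (19 members lower), 0.078 in AML against KO, 0.33 in KO against WT and 0.22 in AML against WT. Of the 37 members, or in KO against WT and AML against WT those recomputed singly, the ones reversed there were Cenpf (-0.086) and Kif23 (-0.050) in NHD13 against WT; Bub3 (0.13), Cks2 (0.047) and Bub1b (0.061) in KO against NHD13; Cenpf (0.16), Nek2 (0.33), Nuf2 (0.36), Cenpe (0.055), Kif20a (0.078) and Prc1 (0.094) in AML against KO; and Ccnb2 (-0.10), Top2a (-0.032), Mki67 (-0.018), Cenpf (-0.15) and Kif23 (-0.15) in KO against WT. The FPKM values, scaled to column totals, moved alike. On log2(FPKM + 1) in limma the medians were 0.47, -0.17, 0.075, 0.29 and 0.20 in that order, with 18 members lower and 1 (Bub3) higher in KO against NHD13 and 1 (Ccnb2) lower in KO against WT. Single genes gave -0.064 (Cenpf) and -0.039 (Kif23); 0.13 (Bub3), 0.048 (Cks2) and 0.055 (Bub1b); 0.12 (Cenpf), 0.29 (Nek2), 0.32 (Nuf2), 0.050 (Cenpe), 0.075 (Kif20a) and 0.083 (Prc1); and -0.10 (Ccnb2), -0.030 (Top2a), -0.015 (Mki67), -0.11 (Cenpf) and -0.13 (Kif23). On log2(FPKM + 0.1) the medians were 0.50, -0.18, 0.082, 0.33 and 0.22, with 18 lower and 1 higher in KO against NHD13 and 1 lower in KO against WT. Single genes gave -0.082 (Cenpf) and -0.044 (Kif23); 0.13, 0.048 and 0.059 for Bub3, Cks2 and Bub1b; 0.15, 0.33, 0.36, 0.055, 0.082 and 0.096 for Cenpf, Nek2, Nuf2, Cenpe, Kif20a and Prc1; and -0.10, -0.031, -0.016, -0.15 and -0.15 for Ccnb2, Top2a, Mki67, Cenpf and Kif23.

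With upper-quartile factors the medians were 0.81 in NHD13 against WT, -0.52 in AML against KO and -0.20 in AML against WT, and Bub3 in KO against NHD13 (0.014), Plk1 (-0.080) and Kif2c (-0.078) in AML against KO reversed. DESeq2 gave medians of 0.94 in NHD13 against WT and 0.049 in AML against WT. The length correction gave medians of 0.97 in NHD13 against WT and -0.50 in AML against KO, where 4 members were higher; Top2a (-0.24), Kif23 (-0.50), Racgap1 (-0.40), Ect2 (-0.028) and Kif2c (-0.20) reversed. With only the groups compared in the fit, the AML against KO median was -0.44. Without a filter on low counts Nek2 in KO against NHD13 was -0.00083.

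Leaving out 1 library at a time, 37 members stayed called higher in NHD13 against WT (median 0.87 to 0.93) and none lower. In KO against NHD13, 29 to 33 were lower and 0 higher (-0.43 to -0.34). In AML against KO 12 were higher and 20 to 21 lower (-0.35 to -0.30), in KO against WT 31 to 32 higher and 0 lower (0.50 to 0.55), and in AML against WT 18 higher and 13 to 14 lower (0.0062 to 0.036). Nek2 in KO against NHD13 ran from -0.069 (without NHD13 replicate 2) to 0.095, and was -0.0010 without KO replicate 2; Nuf2 in AML against KO ran from -0.087 to 0.042 (without KO replicate 1), and Kif23 in KO against WT from -0.055 (without WT replicate 1) to 0.11. A replicate block gave 37 higher, 32 lower, 12 higher and 21 lower, 32 higher, and 18 higher and 15 lower in the 5 comparisons, the counts found without it. Whether the replicate numbers pair the libraries is not known.

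Members with an H3K36me3 peak in NHD13/Setd2 KO - AML were 25 when peaks had to cover 10% of the body, 4 at 50%, and 19 with a −log10 q of at least 5. These are 67.6%, 10.8% and 51.4% of members, against 22.4%, 3.66% and 20.3% of the 14351 tested genes. TTTGAA or TTCGAA was found for 10 members in the 150 bases before the start. The depth of the ChIP and bisulfite libraries is unknown, and 1 library a group allows no test of them.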
